A study of Mus musculus with 5 samples.

Results

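The genes examined here encode the nuclear subunits of the 5 complexes of oxidative phosphorylation, compared between Nfib-null and wild-type mouse mammary glands. Members are the rows of the deposited table whose names begin with Nduf (families a, b, c, s and v), Uqcr, Cox4 to Cox8 or Atp5 (a to o), together with Sdha to Sdhd. The rule found 88 of 22609 genes: 36 of complex I, 4 of complex II, 8 of complex III, 20 of complex IV and 15 of complex V. It also took in 4 assembly factors of complex I and Cox4nb, which encodes a subunit of the endoplasmic reticulum membrane protein complex and no part of cytochrome oxidase. Ndufa4, a subunit now assigned to complex IV despite its name, and its paralog Ndufa4l2 were counted with complex IV.

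RNA was sequenced from whole mammary glands, without lymph nodes, of outbred mice within 12 hours of giving birth. The Nfib-null group had 3 libraries and the wild-type group 2, and no treatment is stated for either. Nfib encodes nuclear factor I/B, a transcription factor, and the series asks how it and STAT5 together govern the changes that pregnancy brings to the gland. The table holds a single RPKM value per gene for each group (reads per kilobase of gene, scaled to library size), so no value of a single library was used and none of the differences has a replicate check or a test. One column bears the name of the wild-type libraries. The labels do not explain the name of the second column, NfibFF-WC, which was taken to hold the Nfib-null group since no further group remains. Its values are given below as those of Nfib-null glands. The labels do not state how Nfib was inactivated, or in which cells. Nfib itself stood at 55.3 RPKM in Nfib-null glands, against 33.7 RPKM in wild-type glands, and a whole-gene value cannot show the loss of part of a gene, so it does not check that assignment. The spacing of low RPKM values implied about 27.2 M and 33.4 M reads for 2 of the Nfib-null libraries and 17.5 M and 14.9 M for the wild-type libraries. The depth of the third Nfib-null library was not resolved. All 13 luminal and 10 myoepithelial markers listed for the tissue were above 1 RPKM on average.

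Oxidative phosphorylation takes place in the inner mitochondrial membrane. Complex I takes electrons from NADH and complex II from succinate, complex III passes them through cytochrome c to complex IV, which reduces oxygen, and complex V makes ATP from the proton gradient that complexes I, III and IV build up. Each complex other than complex II also holds subunits encoded in mitochondrial DNA, which were not analysed here. Some subunits of complex IV have a second gene used mainly in heart and skeletal muscle, in testis or under low oxygen. The lactating gland uses much ATP for the synthesis and secretion of milk, while the fat around it has few mitochondria when it is white and many when it is brown.

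The subunit genes were abundant in both columns. Of the 88 genes, 84 averaged 1 RPKM or more, with columns weighted by their numbers of libraries, and were compared further. Their median was 94.4 RPKM in Nfib-null glands, against 95.7 RPKM in wild-type glands. Over the 12511 genes that passed the same minimum it was 10.7 RPKM in Nfib-null glands and 7.8 RPKM in wild-type glands. Complex V had the highest median, 166 RPKM in Nfib-null glands, against 183 RPKM in wild-type glands, followed by complex IV with 138 RPKM in Nfib-null and 165 RPKM in wild-type glands and complex III with 122 RPKM in Nfib-null and 143 RPKM in wild-type glands. Complex II had 78.9 RPKM in Nfib-null and 79.0 RPKM in wild-type glands, and complex I had 64.6 RPKM in Nfib-null and 67.4 RPKM in wild-type glands. Complexes I and II, the last of that order, overlapped widely. The single gene of highest level was Atp5b, the catalytic beta subunit of ATP synthase, at 513 RPKM in Nfib-null glands, against 584 RPKM in wild-type glands. Levels of members followed each other closely between the columns (Pearson r = 0.978 on log2 RPKM, Spearman rho = 0.964, across 84 genes that share the same libraries and are not independent replicates). The 4 members under the minimum were Cox7b2, Cox8c and Ndufs5, all listed at 0 in both columns, and Cox6a2. Ndufs5 is a subunit that every complex I holds, and a near-identical annotated copy (99.4% identity) exists, so its entry is given only as listed at 0.

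**Figure D1:**
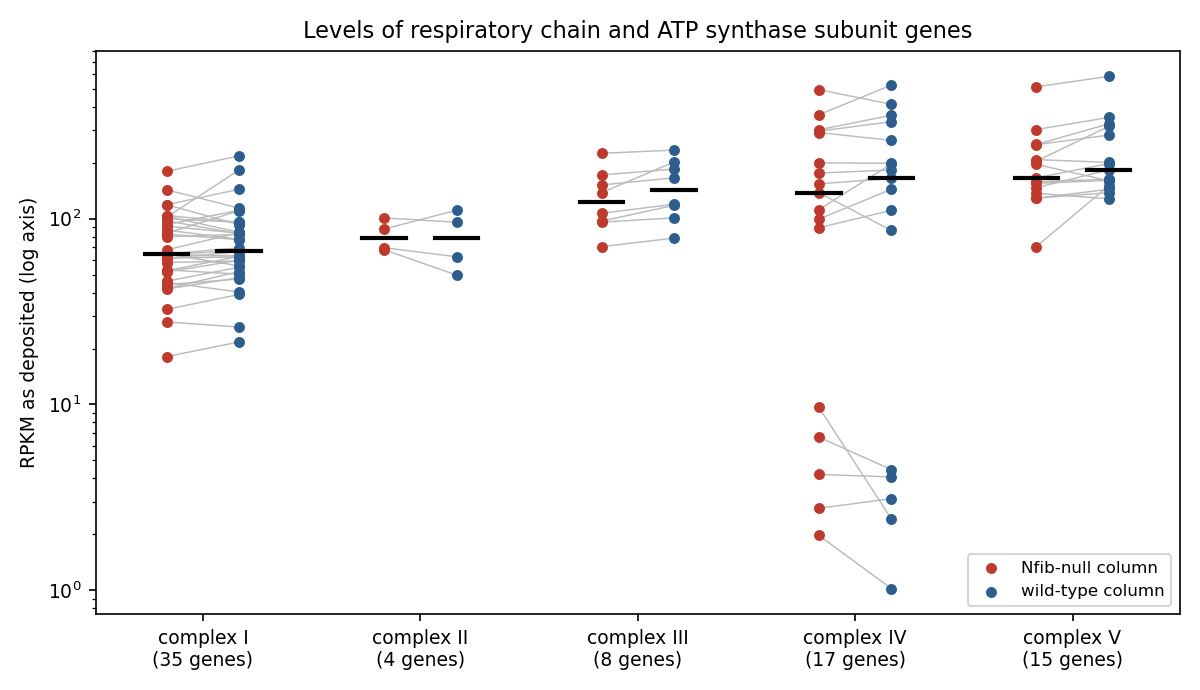
Deposited RPKM (log axis) of the 79 subunit genes above the minimum, by complex, with the Nfib-null column on the left and the wild-type column on the right of each pair. Points are genes, grey lines join the values of a gene, and black bars are medians; the 5 points below 10 RPKM in complex IV are paralogs of the common subunits.

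Summed over all 88 genes, the Nfib-null column held 9795 RPKM and the wild-type column 10787 RPKM, a ratio of 0.908. These sums were 1.79% of all RPKM in the Nfib-null column and 1.14% in the wild type. The milk protein genes, a list of 8 that were all at least 2-fold lower (median −2.97), took 26.2% of the Nfib-null column and 61.8% of the wild-type column. Without those 8 genes the members made up 2.42% in the Nfib-null column and 2.98% in the wild type. In whole tissue, fewer cells of a type and less RNA per cell cannot be told apart.

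Differences were then set relative to the median gene. Each column was divided by a factor that brings the median log2 ratio of the 12511 genes to 0, and a difference is log2(scaled RPKM + 1) of the Nfib-null column minus that of the wild type. On that scale nearly all members lay a little below the median gene in the Nfib-null glands. The median of the 84 members was −0.48, and 78 of them (92.9%) were below 0, as were 50% of all genes tested. At a limit of 1.5-fold, 29 members (34.5%) were lower in the Nfib-null column, where 14.7% of all genes were, and 1 was higher, where 17.1% of all genes were. Past 2-fold there were 4 lower members (4.76%), close to the 5.97% among all genes, and 1 higher, where 6.95% of all genes were. The members lay near one another, with 57 of 84 within 0.25 of their own median and 74 within 0.5. Of all genes tested, which have a lower median level, 61.8% lay within 0.5 of the median gene. Such closeness was not particular to the members, whose interquartile range was −0.66 to −0.29. That of mitochondrial ribosomal protein genes was −0.49 to −0.17, and that of cytosolic ribosomal protein genes −0.30 to −0.08. Mitochondrial carriers of the Slc25 family spread more widely (−0.41 to 0.35). Beside the members, white adipocyte markers had a median of 1.89, macrophage markers 1.3, luminal markers 0.60 and myoepithelial markers 0.15. The luminal list was split, with 5 of 13 genes below 0, and ran from Elf5 at −1.56 to Cldn4 at 2.16. The part of cell composition in the members' shift was not tested.

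The size of this shift, and its sign in single genes, depended on the scaling. With values as deposited the median gene lay at 0.35 and the members' median at −0.08, with 52 of 84 members below 0 (61.9%, against 25.2% of all genes) and 32 above it, where 74.8% of all genes were. Quantile normalization gave a members' median of −0.24 with 71 members below 0, where the median gene lay at −0.01. Scaling within genes of at least 50 RPKM, a setting added once the values were known, kept only 66 members and 1222 genes. It gave a members' median of −0.27. Scaled to 13 luminal epithelial genes, of which 2 were at least 2-fold higher and 1 lower after median-ratio scaling, the members' median was −1.07. The median gene then lay at −0.51, and 83 members were below 0, as were 78.9% of all genes. With this scaling 52 members were at least 2-fold lower (61.9%, against 19.6% of all genes) and 0 were 2-fold higher, where 2.28% of all genes were. Relative to the median gene, the members' median ranged between −0.24 and −0.55 over these 5 scalings, of which the one at 50 RPKM covers fewer genes.

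**Figure D2:**
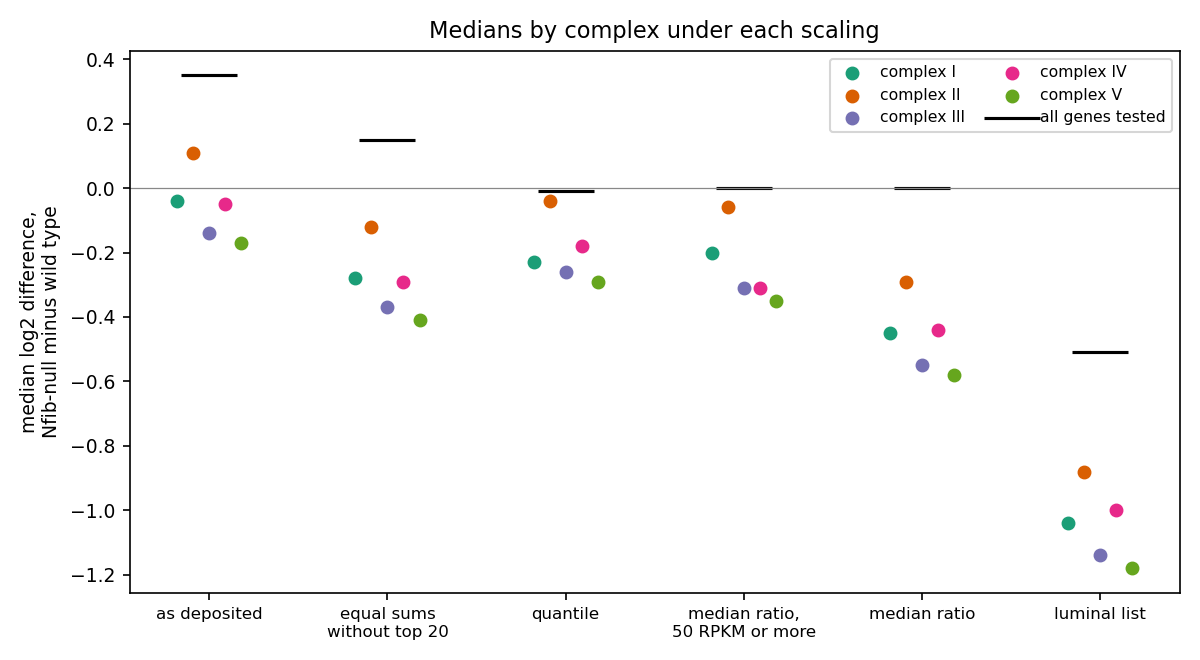
Median log2 difference (Nfib-null minus wild type) of each complex and of all genes tested under 6 scalings. In all 6 the median of complex V is the lowest and that of complex II the highest of the complexes, and all complexes lie below the bar of all genes tested. Complex IV includes its paralogs, and its 11 common subunits alone matched complex V after median-ratio scaling (−0.58). The setting at 50 RPKM or more covers 66 members and 1222 genes.

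**Figure D3:**
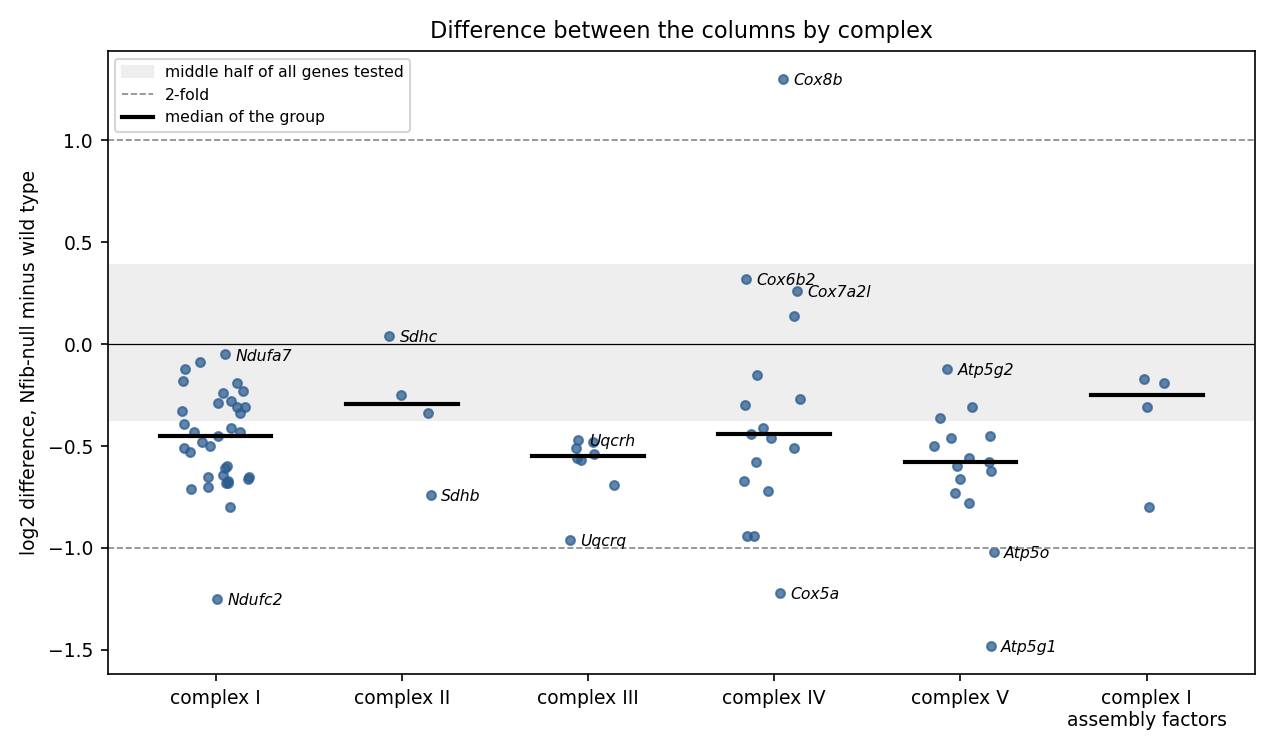
Log2 difference (Nfib-null minus wild type, after median-ratio scaling, pseudocount of 1 RPKM) of each gene above the minimum, by complex. Black bars are medians, dashed lines mark 2-fold, the grey band is the interquartile range of all genes tested (−0.37 to 0.39); most points sit below 0 and 5 lie outside the dashed lines.

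Complex I, the NADH dehydrogenase, had 35 genes above the minimum, and each of them lay below 0 after median-ratio scaling, with a median of −0.45. As deposited, 21 were below 0 and 14 above. The 7 core subunits, which carry the flavin and iron-sulfur centres, had a median of −0.48, and the 28 accessory subunits one of −0.44. Ndufc2, an accessory subunit of the membrane arm, was the 1 gene of the complex at least 2-fold lower. It stood at 102 RPKM in Nfib-null glands, against 183 RPKM in wild-type glands (log2 −1.25, and −0.84 as deposited). Next came Ndufa1, another membrane-arm subunit, at 83.7 RPKM in Nfib-null glands, against 110.4 RPKM in wild-type glands (−0.80), and Ndufb5 at 68.0 RPKM in Nfib-null and 84.1 RPKM in wild-type glands (−0.71).

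At the other end of complex I stood Ndufa7 with 119 RPKM in Nfib-null glands, against 92.8 RPKM in wild-type glands (−0.05), Ndufa6 with 143 RPKM in Nfib-null and 114 RPKM in wild-type glands (−0.09), and Ndufb10 with 103 RPKM in Nfib-null and 84.5 RPKM in wild-type glands (−0.12), all accessory subunits. These 3 were higher in Nfib-null glands as deposited (0.35, 0.31 and 0.29) and after quantile normalization (0.20, 0.16 and 0.15). Ndufs1, a core subunit which carries iron-sulfur centres, stood at 32.5 RPKM in Nfib-null glands, against 39.1 RPKM in wild-type glands (−0.66). Ndufb9 had the highest mean level of the complex, at 180.1 RPKM in Nfib-null glands, against 218 RPKM in wild-type glands, and Ndufa11 the lowest, at 18.1 RPKM in Nfib-null and 21.7 RPKM in wild-type glands. Exons of Ndufa11, Ndufs1, Ndufb5 and the assembly factor Ndufaf2 overlap genes on the opposite strand in the annotation. Those of Ndufb9 overlap a gene on the same strand. The 4 assembly factors, which help build the complex without staying in it, had a median of −0.25, from Ndufaf2 at −0.17 to Ndufaf4 at −0.80 (5.66 RPKM in Nfib-null glands, 8.03 RPKM in wild-type glands).

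Complex II, succinate dehydrogenase, also belongs to the tricarboxylic acid cycle and has 4 subunits, all encoded in the nucleus. None was 2-fold different, and the membrane anchors lay above the catalytic subunits. Sdhc, an anchor of the heme, stood at 68.1 RPKM in Nfib-null glands, against 49.7 RPKM in wild-type glands (0.04). The other anchor, Sdhd, stood at 69.8 RPKM in Nfib-null and 62.4 RPKM in wild-type glands (−0.25). Sdha, the flavoprotein that oxidizes succinate, stood at 101 RPKM in Nfib-null glands, against 95.7 RPKM in wild-type glands (−0.34). Sdhb, the iron-sulfur subunit, stood at 88.0 RPKM in Nfib-null and 111 RPKM in wild-type glands (−0.74). The median of the complex, −0.29, was 0.11 as deposited, and the sign of Sdhc was negative with scaling to luminal genes (−0.55).

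Complex III, the cytochrome bc1 complex, varied least among complexes with more than 4 genes. All 8 genes lay between −0.47 and −0.96 after median-ratio scaling, with a median of −0.55, and all 8 were below 0 as deposited as well. Uqcrh, the hinge protein, stood at 225 RPKM in Nfib-null glands, against 234 RPKM in wild-type glands (−0.47) and had the highest mean of the complex. The core protein gene Uqcrc1 (95.9 RPKM in Nfib-null and 101 RPKM in wild-type glands, −0.48) and Uqcrb (172 RPKM in Nfib-null and 185 RPKM in wild-type glands, −0.51) lay beside it. Uqcrq, a small accessory subunit, was farthest down, at 138 RPKM in Nfib-null glands, against 202 RPKM in wild-type glands (−0.96), just within the 2-fold limit. Uqcrc2, the other core protein, stood at 97.0 RPKM in Nfib-null and 118 RPKM in wild-type glands (−0.69), and Uqcr10 at 107 RPKM in Nfib-null and 119.6 RPKM in wild-type glands (−0.57). The Rieske iron-sulfur protein Uqcrfs1 had the lowest mean, with 70.7 RPKM in Nfib-null glands, against 78.6 RPKM in wild-type glands. Uqcrb and Uqcrc2 overlap genes on the opposite strand, and Uqcrb has 3 near-identical annotated pseudogenes.

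Complex IV, cytochrome oxidase, spread more widely and holds the paralogs that other tissues use. Its 17 genes above the minimum ranged from −1.22 to 1.3 with a median of −0.44. The 11 common subunits all lay below 0 with a median of −0.58, and as deposited 8 of the 11 did. Cox5a, a subunit on the matrix side, stood at 112 RPKM in Nfib-null glands, against 197 RPKM in wild-type glands (−1.22, and −0.81 as deposited). Cox7b stood at 99.5 RPKM in Nfib-null and 144 RPKM in wild-type glands (−0.94), and Cox6a1, a regulatory subunit, at 363 RPKM in Nfib-null and 524 RPKM in wild-type glands (−0.94). Cox4i1, the largest nuclear-encoded subunit, had the highest mean level of the complex and was among the common subunits the one nearest 0, with 495 RPKM in Nfib-null glands, against 413 RPKM in wild-type glands (−0.15, and 0.26 as deposited). Exons of Cox4i1 and Cox4nb overlap on opposite strands, and those of Cox5a overlap an annotated gene on the other strand, so their reads cannot be told apart where strand was not used. Cox4nb stood at 8.51 RPKM in Nfib-null glands, against 5.36 RPKM in wild-type glands (0.22).

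Complex V, the ATP synthase, had the lowest median, −0.58, and all 15 of its genes lay below 0 after median-ratio scaling. As deposited 12 of the 15 did. The 11 common subunits of complex IV, without its paralogs, had the same median as complex V, both here and as deposited (−0.17). The 5 genes of the F1 head, which makes ATP, had a median of −0.56, and the 10 genes of the membrane part and the stalk one of −0.62. Atp5o, the protein that ties the head to the peripheral stalk, stood at 204 RPKM in Nfib-null glands, against 314 RPKM in wild-type glands (−1.02), barely past 2-fold, and was within 2-fold as deposited (−0.62). It overlaps Donson on the same strand and other genes on the opposite strand. Atp5c1, the gamma subunit that turns inside the head, stood at 137 RPKM in Nfib-null and 128 RPKM in wild-type glands (−0.31), and Atp5h, of the peripheral stalk, at 208 RPKM in Nfib-null and 201 RPKM in wild-type glands (−0.36). Atp5c1 has 1 near-identical annotated pseudogene and Atp5h has 4.

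Subunit c forms the ring of the proton channel, and its 3 genes differed from one another. Atp5g1, Atp5g2 and Atp5g3 encode the same mature protein with different import sequences. Atp5g1 stood at 70.8 RPKM in Nfib-null glands, against 150.3 RPKM in wild-type glands (−1.48, and −1.07 as deposited), the most negative difference among all members and the lowest mean level of complex V, and it was past 2-fold under each scaling listed above. Atp5g3 stood at 251 RPKM in Nfib-null glands, against 324 RPKM in wild-type glands (−0.78). Atp5g2 stood at 196 RPKM in Nfib-null and 160.1 RPKM in wild-type glands (−0.12, and 0.29 as deposited). The 3 genes together held 518 RPKM in Nfib-null glands, against 634 RPKM in wild-type glands. Within that sum Atp5g1 took 13.7% in the Nfib-null column and 23.7% in the wild type, Atp5g2 took 37.9% in Nfib-null and 25.2% in wild type, and Atp5g3 48.5% in Nfib-null and 51.1% in wild type. The ratio of Atp5g1 to Atp5g2, which a scaling by 1 factor per column leaves unchanged apart from the pseudocount, differed by −1.36 on the log2 scale. Near-identical pseudogenes are annotated for Atp5g1 (1, with 99.8% identity) and for Atp5g2 (2), and their share of the reads was not tested.

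The promoters of the 3 subunit c genes are shown because genes for 1 and the same mature protein lay at different distances from the median gene. Each run covers 100 bases before to 50 bases after the start annotated by RefSeq on GRCm38.p6, written 5′ to 3′ along the gene, and is from another build than the submitters' mm9. Capitals mark matches to the motifs listed after the next set of promoters.
Atp5g1, chr11:96075582-96075731, minus strand: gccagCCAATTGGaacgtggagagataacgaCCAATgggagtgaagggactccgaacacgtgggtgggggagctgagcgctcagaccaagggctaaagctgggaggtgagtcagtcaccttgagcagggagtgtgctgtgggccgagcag
Atp5g2, chr15:102670998-102671147, minus strand: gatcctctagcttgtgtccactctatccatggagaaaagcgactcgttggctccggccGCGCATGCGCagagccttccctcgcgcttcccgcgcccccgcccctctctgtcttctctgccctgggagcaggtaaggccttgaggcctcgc
Atp5g3, chr2:73911277-73911426, minus strand: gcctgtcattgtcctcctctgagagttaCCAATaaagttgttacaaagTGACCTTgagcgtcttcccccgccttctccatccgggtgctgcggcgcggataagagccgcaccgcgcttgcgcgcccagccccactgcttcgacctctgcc
The matches differed among the 3 genes. Atp5g1 had CCAAT or its complement beginning 95, 92 and 69 bases before the start. Atp5g2 had the NRF1 palindrome 42 bases before the start. Atp5g3 had a CCAAT box 72 bases and an ERR motif 52 bases before the start.

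Tissue-specific isoforms made up a small share of the complex IV transcripts in both columns, and the muscle isoform of subunit 8 stood apart. Cox8b is the isoform of heart, skeletal muscle and brown fat, and Cox8a the common one. Cox8b stood at 9.64 RPKM in Nfib-null glands, against 2.42 RPKM in wild-type glands (1.3, and 1.64 as deposited), the 1 member at least 2-fold higher, while Cox8a stood at 301 RPKM in Nfib-null and 360.5 RPKM in wild-type glands (−0.67). Its share of the summed level of both genes was thus 3.11% in the Nfib-null column and 0.668% in the wild type, and the ratio of the genes differed by 1.97 on the log2 scale (between 1.44 and 2.22 over the alternatives run). If each library held the group value, the depths given above put Cox8b at about 210 reads in the 2 resolved Nfib-null libraries (95% exact Poisson interval 183 to 240). In the wild type it would have about 28 reads (19 to 40). These intervals cover counting error only, and how the reads were shared among libraries is unknown. With a pseudocount of 5 RPKM or with scaling to luminal genes (0.81), Cox8b was within 2-fold.

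The other muscle isoforms were within 2-fold or under the minimum. Cox7a1, the heart and muscle form of subunit 7a, stood at 4.2 RPKM in Nfib-null glands, against 4.07 RPKM in wild-type glands (−0.30). Its ratio to the common gene Cox7a2 differed by 0.43 on the log2 scale (0.07 with quantile normalization), in the same direction as Cox8b but less. Its share of that pair was 4.49% in Nfib-null and 3.53% in wild type. Cox6a2, the muscle form of subunit 6a, was under the minimum, at 0.0905 RPKM in Nfib-null and 0.148 RPKM in wild-type glands. On the same assumption of equal libraries, that is about 4 reads in the 2 resolved Nfib-null libraries and 3 in the wild type. Markers of fat and muscle were set beside Cox8b. Of 13 white adipocyte markers 12 were at least 2-fold higher and none lower, and their summed level was 10664 RPKM in Nfib-null glands, against 2205 RPKM in wild-type glands. Of 9 brown adipocyte markers 6 lay under the minimum, among them Ucp1, the uncoupling protein of brown fat, at 0.139 RPKM in Nfib-null glands and listed at 0 in wild-type glands, and the 3 others, Cidea, Fabp3 and Otop1, were at least 2-fold lower. Cidea and Fabp3 are also known from lactating epithelium. Of 11 skeletal muscle markers 5 were above the minimum, with Acta1 higher (2.32) and Ckm and Tnni2 lower (−1.77 and −1.21). The list summed to 41.7 RPKM in Nfib-null glands, against 19.7 RPKM in wild-type glands, of which Acta1 alone made up 31.9 RPKM in Nfib-null and 4.11 RPKM in wild-type glands. Without Acta1 the sum was thus lower in Nfib-null glands. The part of these cell types in the difference of Cox8b was not tested.

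Promoters of the subunit 8 genes are shown as the pair with the widest log2 ratio difference of those above the minimum, with the same window and capitals as above.
Cox8b, chr7:140900397-140900546, minus strand: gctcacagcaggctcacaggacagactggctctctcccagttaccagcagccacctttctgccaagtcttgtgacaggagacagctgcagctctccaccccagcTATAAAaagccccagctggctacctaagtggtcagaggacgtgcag
Cox8a, chr19:7217567-7217716, minus strand: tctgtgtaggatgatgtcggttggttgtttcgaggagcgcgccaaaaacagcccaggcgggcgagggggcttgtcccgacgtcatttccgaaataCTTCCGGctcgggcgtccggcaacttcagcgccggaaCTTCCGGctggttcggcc
Cox8b had a TATA box match beginning 4 bases after its annotated start. Cox8a had the ETS motif, read on the complementary strand, 5 bases before and 32 bases after its start.

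**Figure D4:**
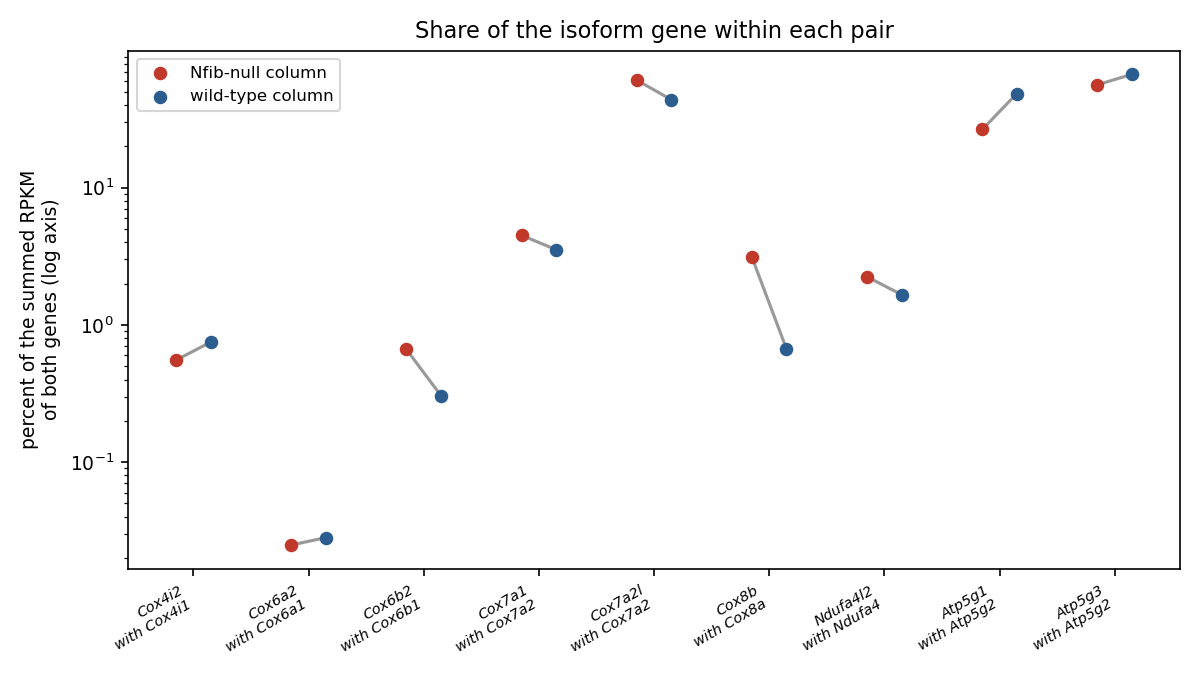
Share of the first-named gene in the summed RPKM of the pair (percent, log axis), with the Nfib-null column on the left and the wild-type column on the right of each pair. The share of Cox8b was 3.11% in Nfib-null and 0.668% in wild type, and that of Atp5g1 beside Atp5g2 was 26.5% in Nfib-null and 48.4% in wild type.

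Across members with a promoter entry (72 of 88, RefSeq, 250 bases before to 50 after the start), motif matches on either strand were counted. The full NRF1 palindrome, in capitals in the Atp5g2 promoter above, and the full NFI palindrome were searched. For ETS factors such as GABP the letters were CCGGAAG, for YY1 they were AAGATGG, and for ERR they were AAGGTCA. The CCAAT box and the TATA box, as TATAAA, were searched by their usual letters. For STAT factors the letters were TTCNNNGAA, with N for any base. NRF1, GABP, YY1 and ERR are known regulators of respiratory genes. The NRF1 palindrome was in 6 members (8.33%), against 2.29% of 9819 tested genes with a promoter and 1.07% of all 27025 genes in the promoter table. The 6 were Atp5g2, Atp5k, Cox6a1, Ndufa11, Ndufaf4 and Uqcrc1. The ERR motif was in 8 members (11.1%, against 3.92% of tested genes and 5.38% of all), and the YY1 motif in 11 (15.3%, against 8.29% and 7.28%). The ETS motif was in 17 (23.6%, against 20% and 9.93%) and CCAAT in 32 (44.4%, against 42.8% and 41.1%). TATAAA was in 7 (9.72%, against 8.79% and 15.7%). The STAT motif was in 5 (6.94%, against 8.22% and 9.55%), and the full NFI palindrome in 0 (against 0.0509% and 0.0444%). Median GC content was 58.3% in the members and 60.7% in the tested genes.

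Of the remaining paralogs, Cox7a2l was the most abundant. It takes part in joining complexes III and IV into supercomplexes and stood at 138 RPKM in Nfib-null glands, against 86.4 RPKM in wild-type glands (0.26, and 0.67 as deposited, but −0.33 with scaling to luminal genes). Its paralog Cox7a2 stood at 89.4 RPKM in Nfib-null and 111 RPKM in wild-type glands (−0.72), so that Cox7a2l made up 60.6% of the pair in the Nfib-null column and 43.7% in the wild type, a log2 ratio difference of 0.98. Ndufa4l2, known to be induced under low oxygen, stood at 6.66 RPKM in Nfib-null glands, against 4.46 RPKM in wild-type glands (0.14), and Ndufa4 at 291 RPKM in Nfib-null and 264 RPKM in wild-type glands (−0.27). Their ratio differed by 0.41 on the log2 scale (0.07 with quantile normalization). Exons of Ndufa4l2 overlap Shmt2 on the opposite strand. Cox4i2, the form of subunit 4 known from lung and low oxygen, stood at 2.76 RPKM in Nfib-null and 3.11 RPKM in wild-type glands (−0.44). Its ratio to Cox4i1 differed the other way, by −0.29. Pericytes, cells of small vessels, are known to express Ndufa4l2 and Cox4i2. None of 8 pericyte markers was 2-fold different and 7 lay above 0 (median 0.30), with a sum of 90.8 RPKM in Nfib-null glands, against 62.0 RPKM in wild-type glands. The part of pericytes in these values was not tested. Among testis forms, Cox6b2 stood at 1.97 RPKM in Nfib-null glands, against 1.02 RPKM in wild-type glands (0.32). If both wild-type libraries held the group value, it rests on about 15 reads there (95% exact Poisson interval 8 to 25, counting error only). Its partner Cox6b1 stood at 296 RPKM in Nfib-null and 333 RPKM in wild-type glands (−0.58). The ratio of Cox6b2 to Cox6b1 differed by 0.90 on the log2 scale (0.45 with quantile normalization). The 6 spermatogenic markers were all under the minimum, with a sum of 0.0981 RPKM in Nfib-null glands, against 0.0216 RPKM in wild-type glands.

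Other genes of the pathway were described by list. Cyc1, the cytochrome c1 subunit of complex III that the symbol rule leaves out, stood at 86.2 RPKM in Nfib-null glands, against 114 RPKM in wild-type glands (−0.81). Cycs, the somatic cytochrome c, stood at 33.5 RPKM in Nfib-null and 48.6 RPKM in wild-type glands (−0.92). Both were lower within 2-fold. Of 25 other assembly factors above the minimum none was 2-fold different, and their median was −0.18. Of 13 tricarboxylic acid cycle genes 1 was lower and none higher, with a median of −0.24. The lower one was Cs, citrate synthase, at 125 RPKM in Nfib-null glands, against 212 RPKM in wild-type glands (−1.17). Of 17 genes of mitochondrial membranes and chaperones none was 2-fold different and 16 lay below 0 (median −0.41).

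The transcription factors and coactivators that drive respiratory genes differed little on balance. Of 12 above the minimum 1 was lower and none higher, and their median was −0.07. Pprc1, a coactivator of the PGC-1 family, was the lower one, at 10.9 RPKM in Nfib-null glands, against 17.7 RPKM in wild-type glands (−1.04, and −0.66 as deposited). Ppargc1b, another of that family, stood at 2.54 RPKM in Nfib-null and 4.25 RPKM in wild-type glands (−0.88), and Esrra, the receptor ERR alpha, at 20.5 RPKM in Nfib-null and 22.2 RPKM in wild-type glands (−0.50). Nrf1, Gabpa and Tfam lay at 0.03, 0.02 and 0.03. Ppargc1a was under the minimum, with 1.11 RPKM in Nfib-null glands, against 0.362 RPKM in wild-type glands.

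The uncoupling proteins, carriers that lie outside the complexes, stood on the other side. Ucp3 stood at 60.9 RPKM in Nfib-null glands, against 6.99 RPKM in wild-type glands (2.57). Ucp2 stood at 289 RPKM in Nfib-null and 83.2 RPKM in wild-type glands (1.38), and both were past 2-fold as deposited too (Ucp3 2.95, Ucp2 1.78). With scaling to luminal genes Ucp3 was past 2-fold (2.01) and Ucp2 within it (0.78). Beside them, 7 of 8 macrophage markers were at least 2-fold higher, with a summed level of 446 RPKM in Nfib-null glands, against 130.4 RPKM in wild-type glands, and the white adipocyte list differed as given above. With scaling to luminal genes 1 of the 8 macrophage markers, Cd68, was past 2-fold (1.08) and the median was 0.73. The part of these cells in the values of Ucp2 and Ucp3 was not tested.

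**Figure D5:**
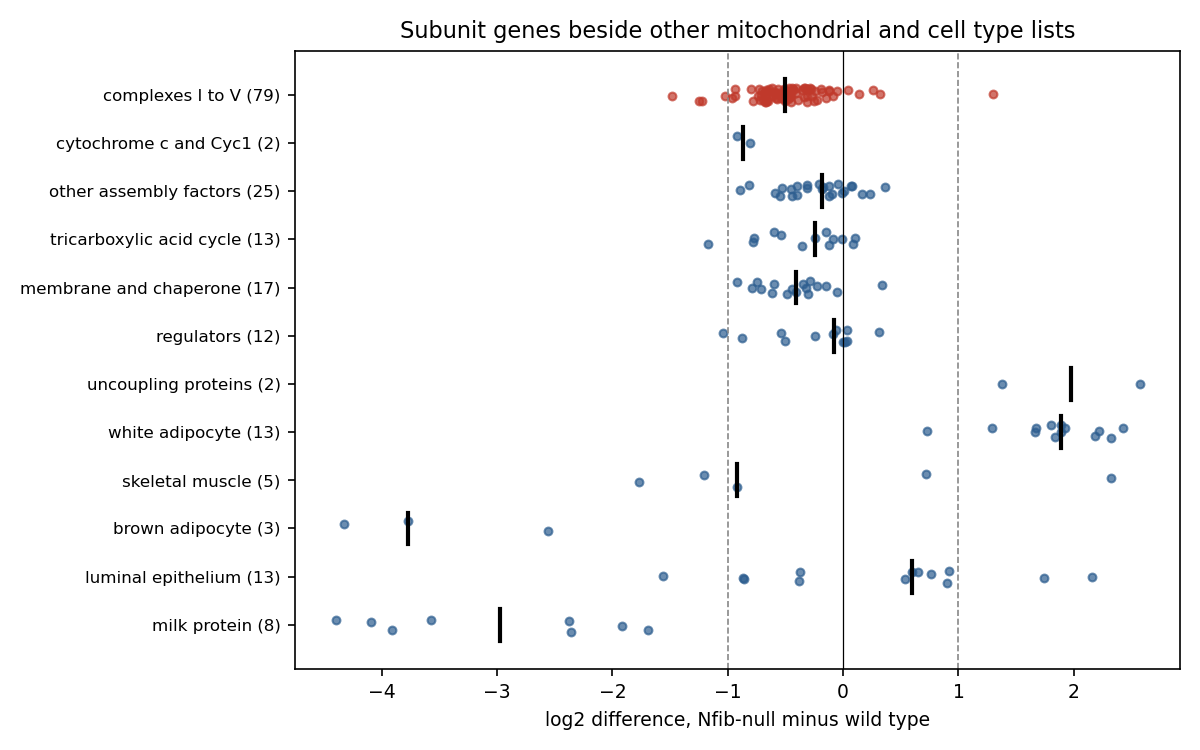
Log2 difference (Nfib-null minus wild type, median-ratio scaling) of genes above the minimum in complexes I to V and in 11 other lists, with the number of genes in brackets. Points are genes, black bars medians and dashed lines 2-fold; the subunit genes gather left of 0 while the uncoupling proteins and white adipocyte genes lie right of it.

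Other large gene sets, which differ in level, were placed beside the members, without a test. The median level of mitochondrial ribosomal protein genes was 25.8 RPKM in Nfib-null and 25.5 RPKM in wild-type glands. That of cytosolic ribosomal protein genes was 623 RPKM in Nfib-null and 510.3 RPKM in wild-type glands. Slc25 carriers had 12.3 RPKM in Nfib-null and 8.86 RPKM in wild-type glands. Mitochondrial ribosomal protein genes had a median of −0.38, with 71 of 76 below 0 and 11 (14.5%) at least 1.5-fold lower. Cytosolic ribosomal protein genes had a median of −0.17, with 71 of 79 below 0 and 1 (1.27%) at least 1.5-fold lower. Mitochondrial carriers of the Slc25 family had a median of −0.03, with 20 of 39 below 0 and 7 (17.9%) at least 1.5-fold lower. Among the members themselves, 29 of 84 were at least 1.5-fold lower, as given above. With quantile normalization the median was −0.24 for the members and −0.30 for mitochondrial ribosomal protein genes. It was 0.06 for cytosolic ribosomal protein genes and 0.01 for Slc25 carriers. The order of the members and the mitochondrial ribosomal protein genes thus depended on the scaling.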

How the data were processed

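The RPKM values were deposited by the authors as a table with 1 value per gene for each group. Per the submitters' processing notes, CASAVA, TopHat and the mouse build mm9 were used, without versions. Not given in the sources used here are the counting tool, annotation, strand setting and pooling of libraries. Depth is known only from the spacing of low values, read as if each column were the plain mean of its libraries.

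Members and gene lists were chosen with earlier results of these data known. Genes were kept from a mean of 1 RPKM upward, weighted by 3 and 2 libraries. Columns were divided by median-ratio factors (1.153 for Nfib-null, 0.867 for wild type), which removed a log2 shift of 0.41, and compared as log2(value + 1 RPKM). Because each group has 1 value, no test was run and a 2-fold limit was used for description. The fold on this scale understates the change of low genes. Named genes are the 3 highest and 3 lowest differences and the highest and lowest levels of each complex, members past 2-fold or under the minimum, and isoform pairs. Ndufs1, Ndufaf2, Ndufaf4 and Cox4nb fall outside that rule and were chosen after their values were seen.

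Near-identical copies (at least 95% identity over 50% of the transcript) were searched with blastn 2.17.0 in GENCODE transcripts. Promoters came from RefSeq. Calculations used Python 3.11.15, numpy 2.4.6, pandas 2.3.3, scipy 1.17.1 and matplotlib 3.10.9, and were tested on simulated data.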

Additional observations from a re-analysis of the deposited data

How the results depend on the processing

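No paired analysis was possible because the table holds 1 value per group, and for the same reason leaving out each replicate was not run. Medians are given for complexes I, II, III, IV and V in that order. Quantile normalization gave −0.23, −0.04, −0.26, −0.18 and −0.29. Equal column sums, leaving out the top 20 genes, gave −0.28, −0.12, −0.37, −0.29 and −0.41. Values as deposited gave −0.04, 0.11, −0.14, −0.05 and −0.17, which reverses the sign of complex II, as the removed shift of 0.41 exceeds its −0.29. Scaling to luminal genes gave −1.04, −0.88, −1.14, −1.0 and −1.18. A pseudocount of 5 RPKM gave −0.43, −0.28, −0.53, −0.40 and −0.57, and one of 0.1 RPKM moved complex IV to −0.47. No filter on low values gave −0.46, −0.31, −0.57, −0.37 and −0.60, and a minimum of 5 RPKM gave −0.38, −0.23, −0.48, −0.42 and −0.52.

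Members at least 2-fold lower, 4 of 84 in the report, numbered 1 with quantile normalization, 1 as deposited, 52 with luminal scaling, and 3 with equal sums or a minimum of 5 RPKM. Of all 12511 genes, 747 were lower in the report and 686 with quantile normalization. As deposited 369 were lower, with luminal scaling 2450 and with equal sums 548. With a minimum of 5 RPKM, 531 of 8821 genes were lower, beside 3 of 81 members. The 1 higher member became 0 with luminal scaling or a pseudocount of 5 RPKM. Of all genes, 869 were higher in the report, 285 with luminal scaling and 346 with that pseudocount. A limit of 1.5-fold gave 29 lower and 1 higher, and one of 4-fold gave 0 lower and 0 higher. Among all genes, 1833 were lower and 2145 higher at 1.5-fold, and 154 were lower and 91 higher at 4-fold.

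Further alternatives were chosen after seeing the data. A minimum of 50 RPKM gave −0.20, −0.06, −0.31, −0.31 and −0.35, with 2 of 66 members lower and 0 higher. Of the 1222 genes at that minimum, 126 were lower and 151 higher. Without members that have a near-identical copy, complexes I, III, IV and V had −0.46, −0.56, −0.42 and −0.61. Of 72 members left, 2 were lower (Cox5a and Ndufc2), beside 747 of all 12511 genes. Without members that overlap a gene on the opposite strand, complexes I, IV and V had −0.48, −0.46 and −0.56. Of 55 members left, 2 were lower (Atp5g1 and Ndufc2), beside the same 747 genes. In these the fall in the count follows from the genes removed or rescaled. With group values alone, the spread between animals is unknown, and differences near the limits, such as that of Atp5o, have no error. Low isoforms rest on few reads.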
